A study of Mus musculus with 10 samples.

Results

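The transcripts described here are those of the mouse mitochondrial genome, taken as every row of the deposited gene count table whose symbol starts with mt-. The rule found 37 of the 55573 genes of the table, namely 13 mRNA, 2 rRNA and 22 tRNA genes, and all 37 matched the mitochondrial chromosome of GENCODE M21. RNA came from cortical projection neurons of pups on postnatal day 3, which were sorted for a yellow fluorescent protein after dissociation of the cortex. The 5 Ctrl libraries came from NexCre/+;Cdk7+/+;R26EYFP/+ pups and the 5 Cdk7_KO libraries from NexCre/+;Cdk7lox/lox;R26EYFP/+ pups, with 1 sorted preparation per mouse. Both groups thus carried the reporter R26EYFP and NexCre, whose Cre is driven by Neurod6 regulatory sequence and is active in excitatory cortical neurons and not in glia or interneurons. The comparison asks what loss of Cdk7, a kinase of the general transcription factor TFIIH that acts on nuclear RNA polymerase II, does to RNA levels, here to those of an organelle with a polymerase of its own.

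Mitochondrial DNA is copied into RNA by the nuclear-encoded polymerase POLRMT as long precursors that run along each strand and hold several genes. Most mRNAs and rRNAs are flanked by tRNAs, and cutting at the tRNAs frees them, so that genes of the same strand start from the same precursor and reach their own level through termination, cutting, tail addition and decay. The mRNAs encode membrane-embedded core subunits of respiratory complexes I, III, IV and of ATP synthase (complex V), all of which are completed by nuclear-encoded subunits. The mRNAs have short A tails, while the rRNAs have few added A bases and mature tRNAs end in CCA, so that libraries made from polyA RNA hold the 3 classes unequally.

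Total counts per library lay between 23497621 and 31233466. Cdk7 was at 10.1 to 20.3 CPM (counts scaled to a library total of 1e6) in Ctrl and at 3.63 to 7.07 CPM in Cdk7_KO, with a log2 fold change of -1.54 (SE 0.22) that did not pass the correction over all genes (edgeR quasi-likelihood test, Benjamini-Hochberg adjusted p = 0.161). It passed with DESeq2 (adjusted p = 2.26e-08) and, in edgeR, without the filter on low counts (adjusted p = 0.0393), with sex as a factor (0.00828) and without Cdk7_KO replicate 1 (0.0391). Counts of Xist and Ddx3y gave the replicates 1 to 3 as male and the replicates 4 to 6 as female, so sex and set of replicates cannot be told apart. Markers of projection neurons were present in each library, with 10 of 10 detected and a summed level of 1823 to 2719 CPM in Ctrl and 2102 to 2811 CPM in Cdk7_KO. Of the 10, 9 had a positive log2 fold change (median 0.27, against 0.01 over all genes), and edgeR called 0. At an unadjusted p under 0.05 edgeR gave 3 higher and 0 lower, beside 4.9% of all genes higher and 10.5% lower. The median was 0.27 in replicates 1 to 3 and 0.16 in replicates 4 to 6.

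Of the 37 genes, 27 had at least 1 count in some library and 10, all tRNA genes, had 0 in each of the 10 libraries. A count of 0 allows a level of up to 0.0961 to 0.128 CPM, depending on the depth of the library. The mRNA genes took 89.6% of the mitochondrial counts, the rRNA genes 10.4% and the tRNA genes 0.0456%. Only 8 genes, the 2 rRNA genes, mt-Nd1, mt-Nd2, mt-Nd4, mt-Nd5, mt-Co1 and mt-Cytb, held between 99.6% and 99.7% of the mitochondrial counts in each library. The 6 mRNA genes mt-Co2, mt-Atp8, mt-Atp6, mt-Co3, mt-Nd3 and mt-Nd4l together held 0.146%.

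These 6 genes lie next to each other, and with 5 tRNA genes (mt-Ts1, mt-Td, mt-Tk, mt-Tg and mt-Tr) they fill a stretch of the mitochondrial genome. GENCODE also shows parts of this stretch, called the copied run here, as a row of pseudogenes on chromosome 1. The stretch runs from inside mt-Co1 to inside mt-Nd4 (chrM:6394-11042, GRCm38, 4649 bases), and the 7 pseudogenes, all on the minus strand, span chr1:24611535-24616197 (4663 bases). The longest exact match of each pseudogene with its mitochondrial counterpart was taken as the identical part. The identical part covered 681 of 684 bases of mt-Co2 (pseudogene Gm28661), 678 of 681 bases of mt-Atp6 (Gm10925), 783 of 784 bases of mt-Co3 (Gm28437), 342 of 348 bases of mt-Nd3 (Gm28438) and 294 of 297 bases of mt-Nd4l (Gm10222). It covered the last 479 of 1545 bases of mt-Co1 (Gm29216) and the first 876 of 1378 bases of mt-Nd4 (Gm28439). No transcript of another GENCODE gene matched mt-Atp8 or the 5 tRNA genes over 50 bases. The place of mt-Atp8, between the counterparts of mt-Co2 and mt-Atp6, is inside the span. Bases between the pseudogenes were not compared, so identity over the whole run was not tested.

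The ends of the copied run are printed here because genes inside it had far lower levels than mt-Co1 and mt-Nd4, in which it ends. Counts are per gene and do not show where within a gene they change. The sequences are sense strands from GENCODE M21 transcripts, 5′ to 3′, and capitals mark bases of the longest exact match. At the 5′ end, bases 1054 to 1106 of mt-Co1 stand beside bases 1 to 53 of Gm29216, and at the 3′ end, bases 837 to 889 of mt-Nd4 beside bases 837 to 876 of Gm28439, which ends there.
mt-Co1: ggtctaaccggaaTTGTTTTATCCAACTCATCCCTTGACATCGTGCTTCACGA
Gm29216: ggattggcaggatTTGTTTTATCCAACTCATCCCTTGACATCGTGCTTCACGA
mt-Nd4: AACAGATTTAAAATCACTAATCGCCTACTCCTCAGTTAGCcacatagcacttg
Gm28439: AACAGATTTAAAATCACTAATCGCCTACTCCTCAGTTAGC

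Levels per gene length differed sharply between the mRNA genes inside this run and the genes in which it ends. In Ctrl, mt-Co1 was at 2517 ± 266 CPM per kb of gene (SD, n = 5), whereas its neighbour mt-Co2, a subunit of the same complex, was at 4.42 ± 0.41 CPM per kb. The 6 mRNA genes inside the run lay between 0.660 and 12.97 CPM per kb. Of the 5 tRNA genes inside it, 4 had 0 counts and mt-Ts1 had 1 count over all libraries. Of the 17 tRNA genes outside, 11 had counts, but mt-Ta, mt-Tn and mt-Tc also had only 1 each and mt-Tv 2. The 6 pseudogenes with the same bases as mt-Co1, mt-Co2, mt-Atp6, mt-Co3, mt-Nd3 and mt-Nd4 were at 1.53 to 9.59 CPM in the mean of Ctrl, and Gm10222, the counterpart of mt-Nd4l, was at 0.396 CPM. Further pseudogenes on chromosome 2 share stretches of 100 bases with mt-Co1 (Gm13340), mt-Co2 (Gm13341) and mt-Nd2 (Gm13339), at 2.56, 0.958 and 0.137 CPM. How reads that align equally well to more than 1 place were treated is not given in the sources used here, and its part in these low levels was not tested. Values of genes inside the run, and in part those of mt-Co1 and mt-Nd4, are therefore not read here as levels of the transcripts.

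**Figure D1:**
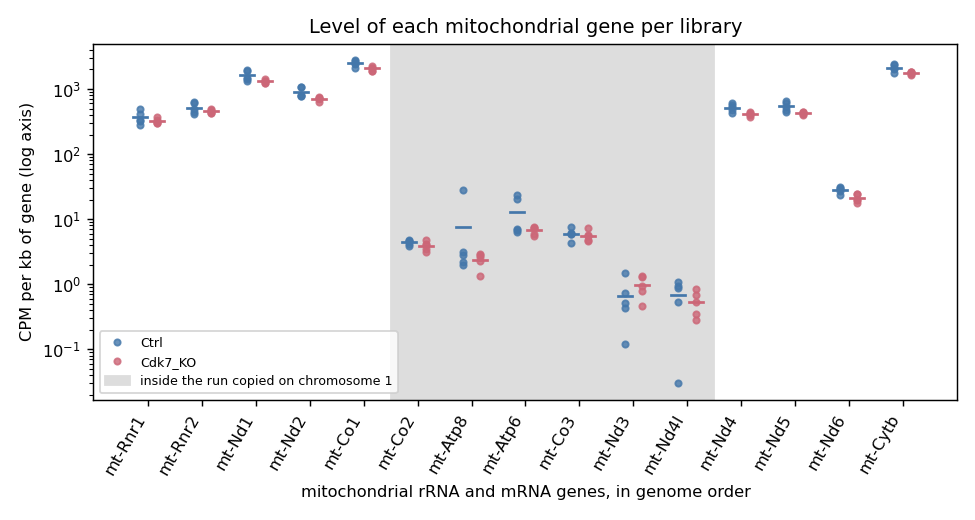
Level of the 15 mitochondrial rRNA and mRNA genes in each library, in CPM per kb of gene on a log axis, in genome order, with points for libraries, bars for group means and grey for the run copied on chromosome 1 (a library with 0 counts is drawn at 0.03). The 6 genes in grey have Ctrl means of 0.660 to 12.97 CPM per kb, and mt-Co1 just before them stands at 2517 CPM per kb.

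Outside the run, mt-Cytb, the cytochrome b of complex III, was at 2136 ± 275 CPM per kb of gene (SD, n = 5), and mt-Nd1, a complex I subunit, at 1613 ± 293 CPM per kb. Next came mt-Nd2 at 903 ± 157 CPM per kb. Below it mt-Nd5 (543 ± 86 CPM per kb), the 16S rRNA gene mt-Rnr2 (519.8 ± 95 CPM per kb) and mt-Nd4 (519.4 ± 75 CPM per kb) did not differ beyond their spread. The 12S rRNA gene mt-Rnr1 stood at 370.4 ± 84 CPM per kb. When lengths were restricted to stretches of 100 bases found in no other GENCODE gene, mt-Nd4 was at 1426 ± 207 CPM per kb and mt-Co1 at 3889 ± 411 CPM per kb, while mt-Cytb (2338 CPM per kb) and mt-Nd5 (574 CPM per kb) changed little. The place of mt-Nd4 in the order thus depends on how its length is counted.

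mt-Nd6, a complex I subunit and the only mRNA gene on the light strand, was far below its neighbour on the other strand, with 28.0 ± 2.9 CPM per kb of gene in Ctrl (SD, n = 5) against 543 ± 86 for mt-Nd5. The 3′ ends of these genes overlap by 14 bases on opposite strands. The last 30 bases of each are shown in its own sense, with the overlap in capitals.
mt-Nd5: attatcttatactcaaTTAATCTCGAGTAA
mt-Nd6: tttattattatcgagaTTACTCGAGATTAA
The strand setting of the counting is not given in the sources used here, so a share of the mt-Nd6 counts may come from the opposite strand.

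For some of these mRNAs, dependence on the tail can be read from the annotated ends. In GENCODE, mt-Nd4, mt-Cytb and mt-Co3 end 1 base past a full codon, on a T that added A bases complete to the stop codon TAA. The last 24 bases of each are given with that base in capitals.
mt-Nd4: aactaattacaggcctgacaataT
mt-Cytb: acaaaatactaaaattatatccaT
mt-Co3: tctccatttattgatgaggatctT
The other 10 mRNA genes end in TAA or TAG in this annotation. Of these, mt-Nd1 and mt-Nd2 end in TAG at bases 3707 and 4951. The tRNA genes mt-Ti and mt-Tw of the same strand start at bases 3706 and 4950, so the AG also belongs to them. Cut at the first base of that tRNA, these mRNAs would also end on a T. Where the cuts fall was not tested.

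The share of all counts assigned to mitochondrial genes had a lower mean in Cdk7_KO, and the groups overlapped. At least 99.6% of these mitochondrial counts lay in 8 genes, so the share hardly covers the genes inside the copied run. In Ctrl it was 1.07%, 0.982%, 1.13%, 1.36% and 1.32% in replicates 1, 3, 4, 5 and 6, a mean of 1.17 ± 0.16% (SD, n = 5). In Cdk7_KO it was 0.969%, 0.982%, 1.01%, 0.890% and 0.956% in replicates 1 to 5, a mean of 0.962 ± 0.045%. Counting error was small beside this, with 95% Wilson intervals reaching at most 0.0043 percentage points to each side (they cover counting error only). Ctrl replicates 4, 5 and 6 lay above each Cdk7_KO library, Ctrl replicate 1 lay above them by less, and Ctrl replicate 3 lay within their range. For the mRNA genes alone the share was 1.06 ± 0.14% against 0.858 ± 0.044%, and for the rRNA genes 0.118 ± 0.023% against 0.103 ± 0.0075%. In such bulk samples, fewer cells with many mitochondrial transcripts and fewer such transcripts per cell cannot be told apart.

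**Figure D2:**
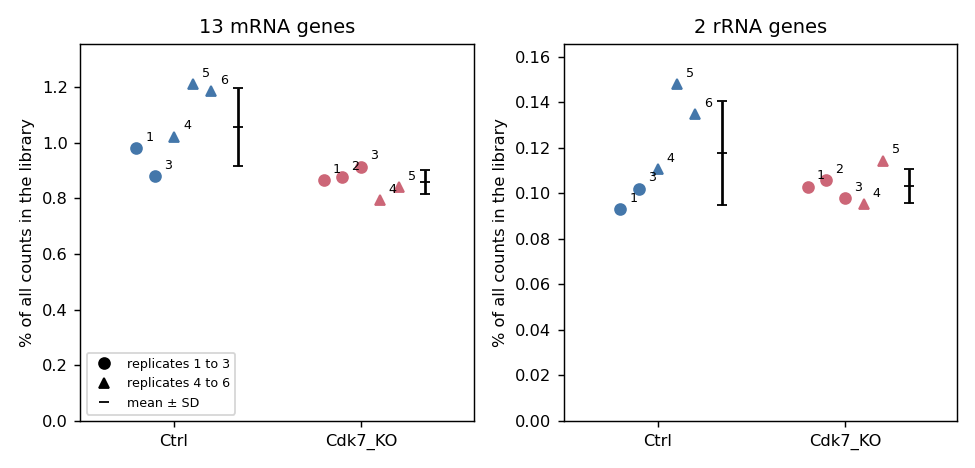
Percent of all counts of a library that came from the 13 mRNA genes and the 2 rRNA genes, with points for libraries (numbers are replicates, triangles replicates 4 to 6) and mean ± SD at the side. Ctrl replicates 5 and 6 stand highest in both panels, and the Cdk7_KO libraries lie close together.

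Of the 37 genes, 17 passed the filter on low counts (11 mRNA, 2 rRNA and 4 tRNA genes) and were tested. edgeR's quasi-likelihood test called 0 of them and 0 of all 15578 genes tested (0% called, smallest adjusted p of a mitochondrial gene 0.183), and DESeq2 called 0 of them against 3.55% of the 16263 genes to which it gave an adjusted p. At an unadjusted p under 0.05, edgeR gave 8 mitochondrial genes lower and 0 higher in Cdk7_KO, beside 10.5% of all genes lower and 4.9% higher. All 11 mRNA genes tested had a negative log2 fold change, with a median of -0.28 against 0.01 over all genes, of which 47.5% were negative. Of the 11, 4 lie inside the copied run and are not read as transcript levels, and 1 of these, mt-Atp6, is among the 8 lower genes. The other 7 were all negative, with the same median of -0.28, and are the remaining lower genes. Genes of the same precursor are not independent, so that 11 negative values are not 11 observations. The p-values measure the spread between mice.

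The 7 mRNA genes that lie wholly or partly outside the copied run had log2 fold changes of -0.35 to -0.22. The largest subunit gene by length, mt-Nd5 of complex I, was at 876, 817.2, 959, 1191 and 1106 CPM in Ctrl replicates 1, 3, 4, 5 and 6 and at 745, 789, 817.0, 729 and 797 CPM in Cdk7_KO replicates 1 to 5. The groups just failed to overlap, since Ctrl replicate 3 and Cdk7_KO replicate 3 differed by less than 1 CPM. Its log2 fold change was -0.30 (SE 0.09, edgeR adjusted p = 0.183). mt-Nd2, another proton-pumping subunit of complex I, was at 842, 803, 812, 1127 and 1102 CPM in Ctrl and at 716, 743, 765, 656 and 782 CPM in Cdk7_KO, in the same order of replicates. Again no Cdk7_KO library reached the lowest Ctrl library, and the log2 fold change was -0.31 (SE 0.10, edgeR adjusted p = 0.200). Over all genes tested, 2.41% had groups that did not overlap with Cdk7_KO lower, and mt-Nd2 and mt-Nd5 were the 2 of 17 mitochondrial genes that did so. None of the 17 had such groups with Cdk7_KO higher, against 0.61% of all genes. These groups were compared on CPM from library totals, whereas the fold changes also use scaling factors between libraries (TMM). The factors of replicate 3 were 1.0185 (Ctrl) and 1.0106 (Cdk7_KO). Those of Ctrl replicate 4 and Cdk7_KO replicate 5 were 1.0447 and 0.97549. Divided by these factors, the CPM of mt-Nd2 and mt-Nd5 overlapped between the groups, so their separation depended on the scaling.

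In the other complex I genes the groups overlapped. mt-Nd4 was at 648, 582, 731, 848 and 771 CPM in Ctrl and at 594, 575, 620.0, 511 and 542 CPM in Cdk7_KO (log2 fold change -0.28, SE 0.09, edgeR adjusted p = 0.187). mt-Nd1, the subunit where the membrane arm meets the peripheral arm, was at 1364, 1256, 1413, 1804 and 1883 CPM in Ctrl and at 1182, 1272, 1289, 1164 and 1359 CPM in Cdk7_KO (-0.25, SE 0.11, edgeR adjusted p = 0.299). In each of these genes Ctrl replicate 3 fell inside the Cdk7_KO range. The light-strand gene mt-Nd6 was at 12.1, 14.1, 16.02, 15.1 and 15.4 CPM in Ctrl and at 10.3, 12.5, 12.8, 10.3 and 9.30 CPM in Cdk7_KO, where Ctrl replicate 1 lay below 2 Cdk7_KO libraries. Its log2 fold change, -0.35 (SE 0.13, edgeR adjusted p = 0.219), was of the same size as those of the heavy-strand genes, whose reads may be part of its counts.

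In complexes III and IV, mt-Co1, the catalytic subunit of cytochrome c oxidase and the member with the most counts, was at 3754, 3274, 3891, 4290.4 and 4233 CPM in Ctrl and at 3305, 3298, 3510.0, 2968 and 2959 CPM in Cdk7_KO (log2 fold change -0.23, SE 0.07, edgeR adjusted p = 0.192). mt-Cytb was at 2285, 2039.9, 2376, 2808 and 2708 CPM in Ctrl and at 2091, 2059, 2119.9, 1900.1 and 1947 CPM in Cdk7_KO (-0.22, SE 0.08, edgeR adjusted p = 0.218). In both genes Ctrl replicate 3 was the only Ctrl library within the Cdk7_KO range, and Ctrl replicates 5 and 6 were highest. Per library, mt-Co1 made up 30.95% to 35.00% and mt-Cytb 20.4% to 21.6% of the mitochondrial counts.

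The rRNA genes had log2 fold changes nearer to 0, a difference from the mRNA genes that was tested only through the ratio of mt-Nd1 to mt-Rnr2. mt-Rnr2, the large-subunit rRNA, was at 658, 712, 786, 1008 and 948 CPM in Ctrl and at 713, 756, 687, 667 and 789 CPM in Cdk7_KO, a log2 fold change of -0.13 (SE 0.11, edgeR adjusted p = 0.597). mt-Rnr1, the small-subunit rRNA, had a log2 fold change of -0.14 (SE 0.13, edgeR adjusted p = 0.650). In each, Ctrl replicate 1 was the lowest of the 10 libraries, Ctrl replicates 3 and 4 lay within the Cdk7_KO range and Ctrl replicates 5 and 6 above it. Over replicates 1 to 3 alone both log2 fold changes were 0.08.

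Of the 22 tRNA genes, 4 were tested and none passed. mt-Tw, for tryptophan, had the highest level per length at 36.3 ± 9.2 CPM per kb in Ctrl (SD, n = 5), and mt-Tl1, for leucine, which separates mt-Rnr2 from mt-Nd1, was at 16.2 ± 4.2 CPM per kb. Their whole sequences, 67 and 75 bases without the added CCA, are shown because they are the tRNA genes with the most counts.
mt-Tw: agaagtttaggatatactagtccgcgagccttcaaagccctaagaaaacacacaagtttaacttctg
mt-Tl1: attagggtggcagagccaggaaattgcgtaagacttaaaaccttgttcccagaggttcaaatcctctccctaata
In Ctrl and Cdk7_KO mt-Tw was at 2.43 and 1.92 CPM (log2 fold change -0.29, SE 0.29) and mt-Tl1 at 1.21 and 1.10 CPM (-0.10, SE 0.31). The other tRNA genes tested were mt-Tt for threonine (-0.48, SE 0.53) and the light-strand gene mt-Tq for glutamine (0.30, SE 0.56), each under 0.5 CPM in both groups. Of the tRNA genes below the edgeR filter, mt-Tp had means of 0.169 and 0.431 CPM (DESeq2 log2 fold change 1.43, adjusted p = 0.238) and mt-Tm of 0.280 and 0.0494 CPM in Ctrl and Cdk7_KO, and mt-Tm had 0 counts in at least 1 library. Reads in tRNA genes may belong to uncut precursors or to neighbouring mRNAs, which the counts do not show.

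Inside the copied run, mt-Atp6 and mt-Atp8, subunits of the membrane part of ATP synthase with overlapping reading frames, departed from the other genes in Ctrl libraries. mt-Atp6 was at 4.38, 4.67, 14.0, 4.84 and 16.2 CPM in Ctrl replicates 1, 3, 4, 5 and 6 and at 3.71 to 5.16 CPM in Cdk7_KO, so that Ctrl replicates 4 and 6 stood apart from the other 8 libraries. mt-Atp8 was at 5.66 CPM in Ctrl replicate 6, at 0.404 to 0.638 CPM in the other Ctrl libraries and at 0.277 to 0.586 CPM in Cdk7_KO. The log2 fold changes of mt-Atp6 (-0.89, SE 0.38, edgeR adjusted p = 0.289) and mt-Atp8 (-1.64, SE 0.76, edgeR adjusted p = 0.332) rested on these libraries, and without Ctrl replicate 6 they were -0.53 and -0.02. The 2 libraries did not stand apart in mt-Co2 (2.64 to 3.32 CPM in Ctrl, log2 fold change -0.13, SE 0.20) or mt-Co3 (3.32 to 5.97 CPM, -0.04, SE 0.20), nor in the pseudogene Gm10925, with 8.47 to 10.1 CPM over the Ctrl and 8.24 to 12.2 CPM over the Cdk7_KO libraries. mt-Nd3 and mt-Nd4l had between 0 and 13 counts per library and were not tested.

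**Figure D3:**
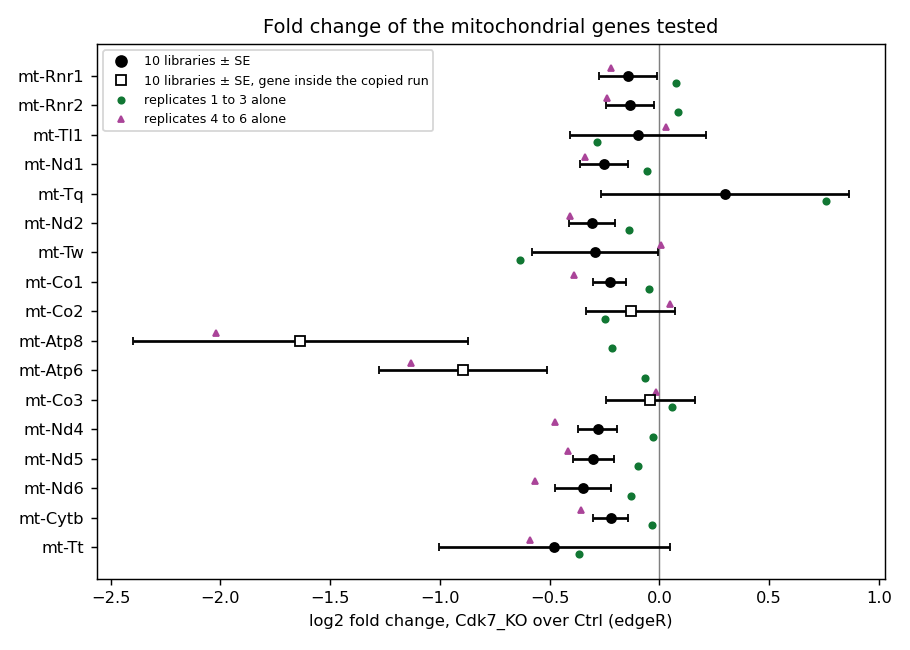
Log2 fold change of Cdk7_KO over Ctrl for the 17 mitochondrial genes tested, over 10 libraries with its SE (black, open squares for genes inside the copied run), and over replicates 1 to 3 (green) or 4 to 6 (purple) alone. The 7 mRNA genes outside or partly outside the run lie between -0.35 and -0.22, with the purple points to the left of the green ones.

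The difference between genotypes was uneven over the replicate numbers. In replicates 1 to 3 (2 Ctrl, 3 Cdk7_KO, the male libraries) the mitochondrial share was 1.03% in Ctrl and 0.988% in Cdk7_KO on average, and in replicates 4 to 6 (3 Ctrl, 2 Cdk7_KO, the female libraries) it was 1.27% and 0.923%. The 7 mRNA genes had log2 fold changes of -0.14 to -0.03 in the former and -0.57 to -0.34 in the latter. The difference of the fold changes between the sets was negative for each of the 7 and most marked for mt-Nd4 (-0.46, SE 0.12, edgeR adjusted p = 0.665 for the interaction). edgeR called 0 genes for this interaction among all 15578 (0% called). At an unadjusted p under 0.05 it gave 4 of the 17 mitochondrial genes (mt-Nd4, mt-Co1, mt-Cytb and mt-Nd5), beside 7.34% of all genes.

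Ratios between members do not depend on how libraries are scaled, and 7 of them were compared, each with a two-sided exact permutation test over the 252 assignments of libraries. None passed after adjustment over the 7 ratios. The ratio of mt-Nd1 to mt-Rnr2, an mRNA and an rRNA gene of the same strand separated by mt-Tl1, was 1.88 ± 0.14 in Ctrl and 1.74 ± 0.08 in Cdk7_KO (SD, n = 5). This was a log2 difference of -0.11 (SE 0.06, exact p = 0.0873, adjusted 0.611). The libraries were made from polyA RNA and the rRNAs have few added A bases, so this ratio does not measure mRNA against rRNA output. The other 6 ratios had exact p of 0.405 to 0.992 and an adjusted p of 0.992.

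Along the heavy strand, the ratio of mt-Cytb at its end to mt-Nd1 near its start was 1.595 ± 0.10 in Ctrl and 1.62 ± 0.12 in Cdk7_KO (SD, n = 5), a log2 difference of 0.02 (SE 0.06). The ratio of mt-Nd6 to mt-Nd5, genes on opposite strands, was 0.0149 ± 0.0020 and 0.0142 ± 0.0017 (-0.06, SE 0.12). As the strand setting of the counting is not given, mt-Nd6 counts may include reads of the opposite strand, and this ratio need not compare the strands. The remaining log2 differences were 0.00 for mt-Rnr2 over mt-Rnr1 (SE 0.05), -0.02 for mt-Nd5 over mt-Nd4 (SE 0.05), 0.01 for mt-Co1 over mt-Nd1 (SE 0.09) and 0.18 for mt-Co3 over mt-Co1 (SE 0.20, with mt-Co3 inside the copied run). The ranges of Ctrl and Cdk7_KO overlapped in all 7 ratios.

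**Figure D4:**
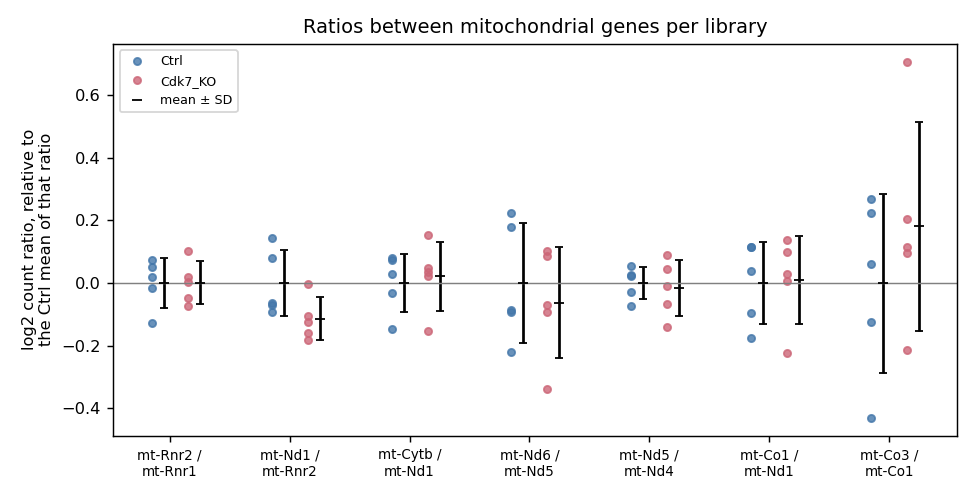
Log2 of 7 count ratios between mitochondrial genes in each library, set to 0 at the Ctrl mean of that ratio, with mean ± SD beside the points. The ratio of mt-Nd1 to mt-Rnr2 has a Cdk7_KO mean 0.11 below Ctrl on the log2 scale, and in each ratio the points of the 2 groups overlap.

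Nuclear partners of these transcripts were not called either. Of 52 listed symbols for factors of mitochondrial transcription, RNA cutting, modification and decay, 48 were found and tested, with 33 positive and 15 negative log2 fold changes and a median of 0.04. edgeR called 0 of them, and 2 were higher and 0 lower at an unadjusted p under 0.05, beside 4.9% of all genes higher and 10.5% lower. The 2 were Ptcd3, a mitoribosome-associated protein (0.19, SE 0.07, edgeR adjusted p = 0.210), and Trmt10c, a subunit of the RNase that cuts the 5′ ends of mitochondrial tRNAs (0.34, SE 0.12, edgeR adjusted p = 0.218). The polymerase gene Polrmt had means of 34.9 ± 3.4 CPM (Ctrl) and 34.2 ± 5.8 CPM (Cdk7_KO, SD, n = 5). Its partner in promoter recognition, Tfam, was at 38.2 ± 4.9 and 41.8 ± 8.1 CPM, and Lrpprc, which stabilises the mRNAs, at 88.6 ± 5.5 and 90.7 ± 7.1 CPM. These 3 genes are given for their role, outside the rule for named genes. The initiation factor gene Tfb2m (0.20, SE 0.10) and the RNA helicase gene Dhx30, the most abundant of the list (0.03, SE 0.07), were not called.

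Among 23 genes of mitochondrial DNA maintenance and dynamics, 17 were positive and the median was 0.06. Polg, the catalytic subunit of the mitochondrial DNA polymerase, had a Ctrl mean of 63.7 ± 10.9 CPM (SD, n = 5; log2 fold change -0.30, SE 0.11, edgeR adjusted p = 0.216). Opa1, a fusion GTPase of the inner membrane (0.17, SE 0.06, edgeR adjusted p = 0.210), and the nuclease gene Endog (0.39, SE 0.16, edgeR adjusted p = 0.272) were on the other side. Of 11 regulators of mitochondrial biogenesis, 8 were negative (median -0.03), with Tfeb at -1.22 (SE 0.45), the coactivator gene Ppargc1a at -0.46 (SE 0.27, edgeR adjusted p = 0.440) and Yy1 at 0.10 (SE 0.07). In both lists edgeR called 0 genes.

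Nuclear-encoded subunits of the same respiratory complexes had mostly positive log2 fold changes over all 10 libraries, while 47.5% of all genes were negative. Of 36 complex I subunit genes 29 were positive (median 0.08), of 9 complex III genes 9 (median 0.03), of 11 complex IV genes 9 (median 0.10) and of 16 complex V genes 15 (median 0.07), and edgeR called 0 in each list. When libraries were scaled by their totals alone, the fold changes shifted by -0.05 (median, log2 scale), a shift of the size of these medians. In replicates 1 to 3 alone the medians were -0.01 (I), -0.06 (III), 0.00 (IV) and -0.02 (V), and in replicates 4 to 6 they were 0.14, 0.12, 0.17 and 0.17. Examples were Ndufb10 and Ndufa10 of complex I (0.15, SE 0.07 and 0.16, SE 0.07), Uqcr10 and Uqcrc1 of complex III (0.15, SE 0.07 and 0.03, SE 0.06), Cox5b and Cox4i1 of complex IV (0.13, SE 0.05 and 0.11, SE 0.06), and Atpif1, the ATP synthase inhibitor, and the catalytic subunit Atp5b (0.17, SE 0.06 and 0.06, SE 0.05). The values of Dhx30 and Uqcrc1 became slightly negative with library totals.

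Set against their nuclear partners over all 10 libraries, the mitochondrial mRNAs had lower means in Cdk7_KO for each complex with a countable member. The summed CPM of 5 complex I mRNAs was 1.96 ± 0.36 times that of 36 nuclear subunits in Ctrl and 1.53 ± 0.07 times in Cdk7_KO (SD, n = 5), with a Ctrl range of 1.53 to 2.36 and a Cdk7_KO range of 1.42 to 1.599. For mt-Cytb over 9 nuclear complex III genes the ratio was 2.71 ± 0.46 and 2.23 ± 0.06, and for mt-Co1 over 11 nuclear complex IV genes 2.85 ± 0.41 and 2.29 ± 0.14. In each complex the lowest Ctrl value lay within or below the Cdk7_KO range, and the Ctrl libraries were more spread. The sets of replicates differed here too. In replicates 1 to 3 mt-Cytb had a log2 fold change of -0.035 beside a nuclear complex III median of -0.063, and mt-Co1 -0.046 beside a complex IV median of 0.001. In replicates 4 to 6 these values were -0.36 beside 0.12 and -0.39 beside 0.17. The ratios themselves were not compared within the sets.

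Markers of cells that NexCre does not mark had negative log2 fold changes over all 10 libraries, and edgeR called 0 genes in each list. At an unadjusted p under 0.05, 12 of 12 radial glia and astrocyte genes, 10 of 10 endothelial and mural, 5 of 9 microglial, 6 of 8 oligodendrocyte lineage, 1 of 10 interneuron and 5 of 5 erythroid genes were lower, beside 10.5% of all genes. All 12 radial glia and astrocyte genes had a negative log2 fold change (median -1.07), and their summed level was 1110 to 1983 CPM in Ctrl and 353 to 1183 CPM in Cdk7_KO. The 10 endothelial and mural genes were all negative (median -1.62, 197 to 1244 CPM in Ctrl and 50.6 to 276 CPM in Cdk7_KO), as were 9 microglial genes (-0.84, 100.1 to 336 and 52.8 to 163 CPM). The 8 oligodendrocyte lineage genes had a median of -0.80 (333 to 935 and 203 to 565 CPM) and 10 interneuron genes a median of -0.90 (82.0 to 387 and 23.7 to 268 CPM), with each of them negative. The interneuron median was 0.39 in replicates 1 to 3 and -2.09 in replicates 4 to 6, so its direction differed between the sets, and the oligodendrocyte lineage median was -0.17 and -1.24. In the same order of sets the medians were -0.80 and -1.94 for radial glia and astrocytes, -2.21 and -1.08 for endothelial and mural cells, -0.87 and -1.14 for microglia and -1.12 and -1.36 for erythroid cells. These differences between the sets were not tested for the lists. Of 6 erythroid genes 5 were tested and negative (median -1.23, 82.0 to 199.8 and 34.7 to 89.4 CPM), and 1, Hemgn, had 0 counts in some libraries. No other marker was at 0 in any library. The part of these cells in the mitochondrial levels was not tested.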

How the data were processed

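The deposited table holds counts, whole numbers per gene and library that the authors did not normalize. The submitters' processing notes name STAR, Salmon and the build GRCm38. They do not say which of these tools counted reads, in which version, with which strand setting, or what was done with reads that have several alignments: this is not given in the sources used here. Libraries were directional and made from polyA RNA, per the labels' protocols. Each of the 10 columns matched a sample by its library name, with 0 columns left over. No pair of libraries was a copy (smallest chi-square per gene 12.2).

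The main test over all genes was edgeR 4.0.16 under R 4.3.3 (filterByExpr by group with minimum count 10, TMM factors, glmQLFit, glmQLFTest, genotype alone, Benjamini-Hochberg over 15578 genes, threshold 0.05). On simulated data the fit called 40%, 58%, 78% and 72% of genes changed by a fold of 1.5, 2, 3 and 4, and 6.06% of its calls were false. Changes smaller than a fold of 1.5 were not simulated. CPM use library totals. DESeq2 1.42.0 and limma 3.58.1 (voom) were alternatives, as were other scalings and filters, a sex term, each replicate left out, replicates 1 to 3 or 4 to 6 alone and a replicate block. Standard errors come from the F statistic. Ratios of counts were compared on the log2 scale by exact permutation. Exact matches were searched among GENCODE M21 transcripts on both strands, in stretches of 50, 75 and 100 bases. The members and lists were chosen with earlier results of these data known. The rule for named genes took every mitochondrial gene, Cdk7, and of each list up to 3 genes with the smallest p and the most abundant gene. The text names some of these genes as examples and gives the marker lists by counts and sums, and 1 item is not reported here. The 10 libraries came from 10 mice.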

Additional observations from a re-analysis of the deposited data

Results flagged for a closer look

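Of 56 groups of 5 libraries checked for a library far from the rest, 1 was picked out, and chance picks about 1 in 20. mt-Atp8 was at 5.66 CPM in Ctrl replicate 6, while the other 4 Ctrl libraries lay between 0.404 and 0.638 CPM.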

How the results depend on the processing

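The count of 0 mitochondrial genes called held in each of the 22 alternatives, with a smallest adjusted p of 0.0746 (DESeq2, mt-Nd5). Of 17 genes tested, 8 were lower at an unadjusted p under 0.05, a count that was 1 in replicates 1 to 3 alone and 6 to 9 when each replicate was left out. The median log2 fold change was -0.064 for the mRNA genes and -0.056 for the 7 not inside the copied run in replicates 1 to 3 alone, and -0.35 to -0.18 and -0.35 to -0.22 with each replicate left out. The difference in share of counts, -0.211 percentage points over 10 libraries, was -0.0396 in replicates 1 to 3, -0.347 in replicates 4 to 6 and -0.259 to -0.165 with each replicate left out. The cause of these moves was not tested.

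Same-numbered libraries had correlated deviations over 0.1 in 3 of 4 numbers (-0.104, 0.314, 0.143 and 0.173), and 3 of 4 Ctrl libraries correlated best with their own number, a hint of pairing from the data. Same-numbered libraries also had the same sex call, so pairing and shared sex or set of replicates cannot be told apart here. A pairing was taken only where every number was over 0.1, which did not hold for replicate 1. With a replicate block over the 8 libraries with shared numbers, 2 genes were lower at an unadjusted p under 0.05, and 4 in those 8 libraries without the block, an alternative chosen after seeing the data. With the block, log2 differences were -0.020 for mt-Rnr2 over mt-Rnr1, -0.016 for mt-Cytb over mt-Nd1 and -0.038 for mt-Co1 over mt-Nd1, and log2 fold changes were -0.23 for mt-Tq and -0.048 for Polrmt (-0.039 without the block).

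Other values near 0 changed sign. With library totals Dhx30 was at -0.021, Uqcrc1 at -0.022 and Polrmt at -0.029. With sex as a factor mt-Tq was at -0.077, mt-Co3 at 0.022 and Polrmt at -0.0044, and with limma voom mt-Tq was at -0.041. In replicates 1 to 3 mt-Rnr1 was at 0.076, mt-Rnr2 at 0.085, mt-Co3 at 0.057, Ndufa10 at -0.023, Uqcrc1 at -0.099, Atp5b at -0.030 and Lrpprc at -0.0039. In replicates 4 to 6 mt-Tl1 was at 0.031, mt-Tw at 0.0086, mt-Co2 at 0.048, Dhx30 at -0.0039 and Polrmt at -0.12, and the ratios were at -0.024 (mt-Rnr2 over mt-Rnr1), -0.025 (mt-Cytb over mt-Nd1), 0.065 (mt-Nd5 over mt-Nd4) and -0.057 (mt-Co1 over mt-Nd1). With each replicate left out the ranges were -0.21 to 0.073 for mt-Tl1, -0.012 to 0.56 for mt-Tq, -0.16 to 0.054 for mt-Co3, -0.010 to 0.070 for Dhx30 and -0.054 to 0.068 for Polrmt. For the ratios they were -0.031 to 0.019 (mt-Rnr2 over mt-Rnr1), -0.016 to 0.064 (mt-Cytb over mt-Nd1), -0.12 to 0.0066 (mt-Nd6 over mt-Nd5), -0.043 to 0.014 (mt-Nd5 over mt-Nd4) and -0.033 to 0.069 (mt-Co1 over mt-Nd1). Low counts limit the tRNA genes and the genes inside the copied run.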
